A study of Mus musculus with 25 samples.

Results

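The interferon-induced GTPases of the guanylate-binding protein (Gbp) and immunity-related GTPase (Irg) families are represented here by 8 genes, Gbp2, Gbp3, Gbp6, Gbp7, Irgm1, Irgm2, Igtp and Iigp1, of the 36528 gene identifiers counted in sorted mouse brain cells. The 8 genes were chosen by symbol, from a list of names drawn up with the read counts of the 4 groups of libraries known, so their levels and differences between these groups are given as a description and carry no test. All mice were 6 months old and either carried the human tau transgene hMAPT-P301S, which encodes tau with the P301S mutation of inherited frontotemporal dementia, or were their non-transgenic (non-Tg) littermates. Neurons were sorted by the nuclear protein NeuN and astrocytes by the filament protein Gfap. There were 5 libraries of P301S astrocytes, 6 of non-Tg astrocytes, 6 of P301S neurons and 8 of non-Tg neurons, with 1245964 to 4453555 counts each. Myeloid cells sorted by Cd11b in the same study were not analysed here. The labels give neither the promoter of the transgene, nor the sex of the mice, nor whether a library came from 1 animal or from pooled animals, and they do not tie a neuron library to an astrocyte library. The spread between libraries may therefore be in part technical.

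Gbp proteins are large GTPases that interferon-gamma, and to a lesser degree type I interferons, induce in most cell types. They assemble on the membranes of vacuoles that hold bacteria or parasites, and on bacteria in the cytosol, and help to break these membranes and to set off inflammasomes. Irg proteins are smaller GTPases of the same defence. In mice, Irgm1, Irgm2 and Igtp (also called Irgm3) sit on the cell's own membranes and keep effector Irg proteins such as Iigp1 (Irga6) inactive there, while effector proteins load onto the vacuole of Toxoplasma. Gbp7 is known in mouse macrophages for its part in assembling the phagocyte NADPH oxidase, and Irgm1 for its links to autophagy. Astrocytes in culture are known to express these genes when exposed to interferon.

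Gbp7, Gbp3 and Gbp2 lie in this order on 1 strand of chromosome 3 (RefSeq, GRCm38.p6), at chr3:142530336-142550151, chr3:142560016-142573213 and chr3:142620663-142638008. Gbp6 lies in the other Gbp cluster at chr5:105270702-105295871. Irgm1 lies at chr11:48865245-48871420, Igtp at chr11:58199556-58207592 and Irgm2 at chr11:58214977-58222783. Igtp and Irgm2 are neighbours on the same strand, and in GENCODE M21 a longer Irgm2 gene model overlaps Igtp over 7974 bases. Of the stretches of 50 bases in Igtp transcripts, 11.8% also occur in Irgm2 transcripts, and 45.9% of those in Gbp6 transcripts also occur in its near copy Gbp10. The deposited counts are of reads that align uniquely, so reads from shared stretches may not be counted, and how reads within overlapping gene models were assigned is not stated in the sources used here. Counts of Igtp, Irgm2 and Gbp6 are therefore less certain than those of Irgm1, which shares no such stretch with any other family gene, or of Gbp3, Gbp7, Gbp2 and Iigp1, which share between 1.51% and 3.75%.

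The promoters of these genes are known for the DNA motifs through which interferon acts. The core of the interferon-stimulated response element (ISRE), bound by Irf factors, was searched as GAAANNGAA and, on the other strand, TTCNNTTTC. The gamma-activated site (GAS) was searched as TTCNNNGAA, which reads the same on both strands. RefSeq promoter windows of 300 bases (GRCm38.p6, 250 before the transcript start and 50 after it) were matched for 6 of the 8 genes, with Gbp3 having 2 windows. All 6 genes had at least 1 ISRE core in a window, against 8.56% of 32851 promoter windows of the same length. Gbp7, Igtp and Irgm2 also held a GAS, against 8.30% of all windows, and both motifs were found in 1.07% of all windows. Among other family genes with a window searched, Gbp5, Gbp2b, Gm12185, 9930111J21Rik1, Tgtp1, Tgtp2 and Gm12250 had an ISRE core too. Irgq and 9930111J21Rik2 did not. No window was searched for Gbp4, Gbp8, Gbp9, Gbp10, Gbp11, Irgc1, Gm4951, Gm4841 or F830016B08Rik. Gbp5, Gm12185, Tgtp1, Tgtp2 and Gm12250 held a GAS as well. These motifs are therefore not particular to the genes described. The stretches that hold the matches are shown for each of the 6 genes, on the gene's own strand, with the matched bases in capitals.
Gbp7: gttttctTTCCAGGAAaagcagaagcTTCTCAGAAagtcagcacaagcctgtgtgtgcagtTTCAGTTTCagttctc
Gbp3: acacagtTTCAGTTTCTATTTCccagatc
Gbp2: ttttagtTTCACTTTCactgtct
Irgm1: gtttcaaGAAATAGAAACCGAAactgatt
Igtp: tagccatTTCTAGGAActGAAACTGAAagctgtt
Irgm2: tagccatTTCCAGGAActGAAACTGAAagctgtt

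The Gbp7 stretch (chr3:142530223-142530299, plus strand) holds a pair of GAS matches followed by an ISRE core. The Gbp3 stretch (chr3:142559993-142560021, plus strand) and the Irgm1 stretch (chr11:48871429-48871457, minus strand) each hold a pair of ISRE cores that overlap. Gbp2 has 1 ISRE core (chr3:142620598-142620620, plus strand). In Igtp (chr11:58199504-58199537, plus strand) and Irgm2 (chr11:58214895-58214928, plus strand) a GAS is followed, 2 bases on, by an ISRE core. The windows of Gm12185, Tgtp1 and Tgtp2 hold the same arrangement. The 34-base stretches of Igtp and Irgm2 differ at 1 base, T11C, counted from 1 at the first printed base, with Igtp's base given first. A match describes these letters and does not show that a factor binds there.

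The labels were checked against defining markers. Summed over 8 markers, astrocyte genes reached 11995 to 24119 CPM (read counts relative to library size, with sizes scaled by the trimmed mean of M-values, TMM, over all 25 libraries) in P301S astrocytes and 13148 to 21929 CPM in non-Tg astrocytes, against 225 to 545 CPM in neurons. Markers of neurons reached 475 to 961 CPM in astrocytes, against 1830 to 2637 CPM in neurons. P301S astrocyte libraries stood apart in quality. At an equal depth of 1245964 counts they detected 12446 to 16657 genes, against 15345 to 18331 in non-Tg astrocytes and 18259 to 19367 in neurons, and mitochondrial genes took 3.61% to 11.4% of their counts, against 2.31% to 5.66% in non-Tg astrocytes. P301S astrocyte library 4 had the fewest genes, the highest mitochondrial share and the lowest TMM factor, 0.559. Gfap, the gene of the protein by which astrocytes were sorted, was itself higher in P301S than in non-Tg astrocytes. Its log2 difference was 2.22 (SE 0.30, edgeR adjusted p = 0.000512). Whether the sort took different astrocytes from the genotypes was not tested. In bulk RNA from sorted cells, a larger share of cells with a transcript and more transcript per cell cannot be told apart.

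Together the 8 genes took 268, 103, 424, 503 and 346 CPM in the 5 P301S astrocyte libraries, against a lowest value of 38.4, a median of 64.1 and a highest value of 129 CPM in non-Tg astrocytes. P301S astrocyte library 2, the lowest of its group, fell below the highest non-Tg astrocyte library, and the other four lay above all 6. In neurons the sum was far lower, with a lowest value of 3.85, a median of 11.7 and a highest value of 20.3 CPM in P301S libraries and of 1.35, 5.69 and 10.2 CPM in non-Tg libraries. The summed level of the 4 Gbp genes averaged 229.8 ± 100.2 CPM in P301S libraries (SD, n = 5), against 55.0 ± 22.2 CPM in non-Tg libraries (SD, n = 6) of astrocytes. That of the 4 Irg genes averaged 99.1 ± 70.2 CPM in the P301S and 15.8 ± 8.96 CPM in the non-Tg astrocyte libraries.

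**Figure D1:**
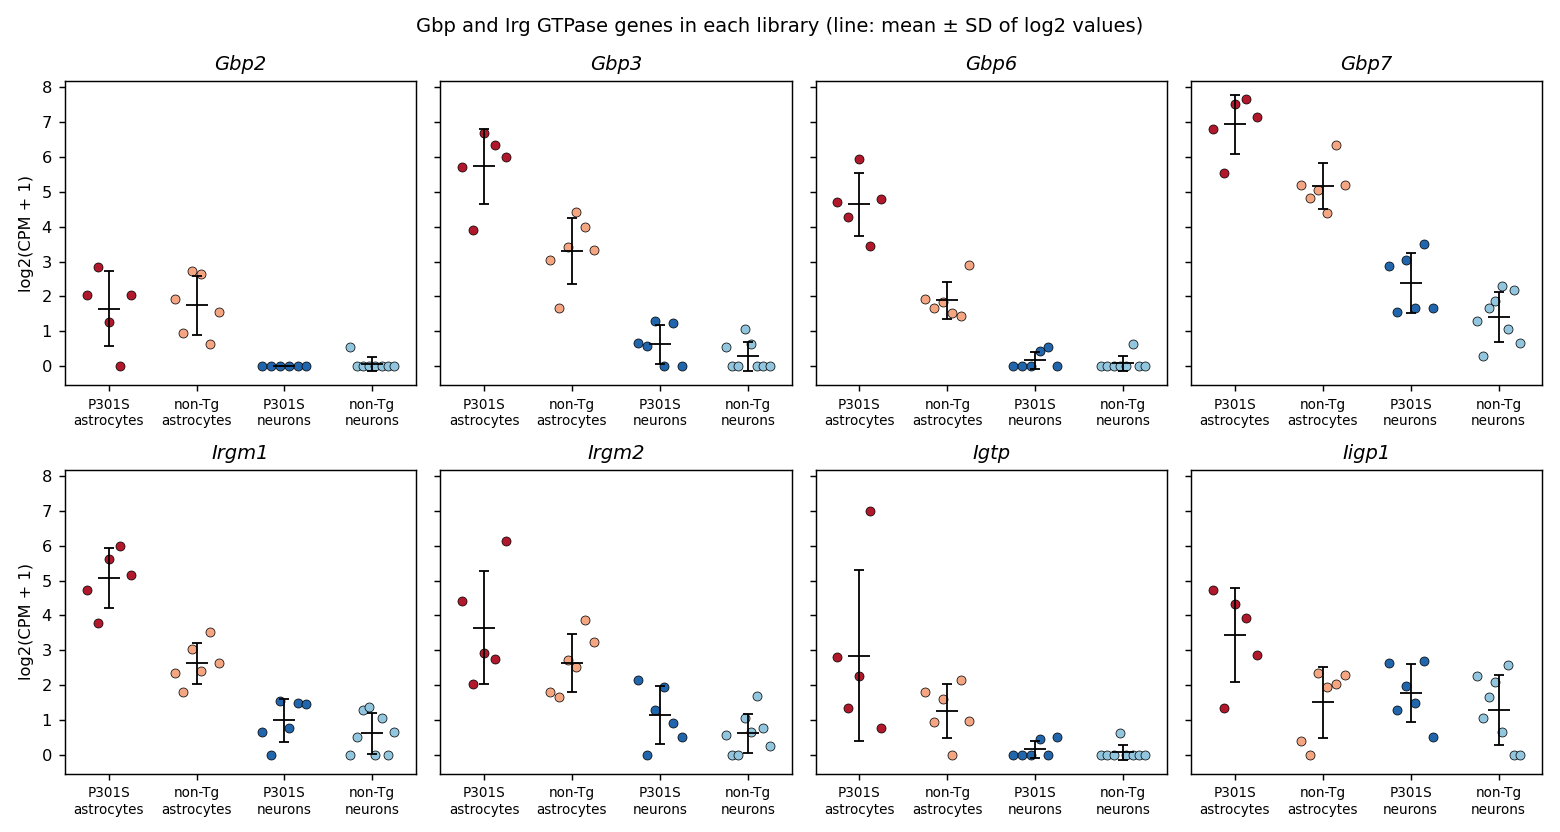
Level of each of the 8 genes in every library, as log2(CPM + 1), for P301S astrocytes (n = 5), non-Tg astrocytes (n = 6), P301S neurons (n = 6) and non-Tg neurons (n = 8). Points are libraries and black lines the mean ± SD of the log2 values; for Gbp6 and Irgm1 every P301S astrocyte library lies above every non-Tg astrocyte library, Gbp2 is alike in both, and 1 library stands far above the rest for Irgm2 and Igtp.

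Per length, the levels of the 8 genes were compared on the deposited RPKM values (reads scaled for gene length and library size, adjusted by the authors' size factors). In P301S astrocytes the order of mean levels was Gbp7 with 4.09 ± 1.99 RPKM, Gbp3 with 3.28 ± 1.80, Irgm1 with 2.72 ± 1.53, Igtp with 2.39 ± 4.80, Gbp6 with 0.998 ± 0.714, Irgm2 with 0.986 ± 1.31, Iigp1 with 0.709 ± 0.495 and Gbp2 with 0.181 ± 0.151 RPKM (SD, n = 5). The ranges of all neighbours in this order overlapped, and only the means of Iigp1 and Gbp2 lay farther apart than the larger of the neighbours' SDs. In non-Tg astrocytes Gbp7 was also the highest, with 1.14 ± 0.642 RPKM (SD, n = 6), followed by Gbp3 with 0.545 ± 0.323 and Irgm1 with 0.406 ± 0.210 RPKM, and Gbp6 was the lowest with 0.102 ± 0.0616 RPKM. Of the 8 genes' summed mean RPKM, Gbp7 took 26.7% in P301S and 38.8% in non-Tg astrocytes, and Gbp2 took 1.18% in P301S and 6.41% in non-Tg astrocytes. In P301S neurons Iigp1 and Gbp7 were the highest of the 8, at 0.162 ± 0.116 and 0.158 ± 0.110 RPKM (SD, n = 6), and in non-Tg neurons likewise at 0.115 ± 0.109 and 0.0628 ± 0.0435 RPKM (SD, n = 8).

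The comparison of genotypes within astrocytes asks what astrocytes of P301S brains express differently. Across all genes, edgeR's quasi-likelihood F test with Benjamini-Hochberg adjustment called 63 of 12130 genes higher and 3 lower in P301S astrocytes at an adjusted p under 0.05, and the median log2 change was 0.13. Of the 8 GTPase genes, 6 passed the filter on low counts and Gbp2 and Igtp did not. The fit gave Gbp6, Irgm1, Gbp3 and Gbp7 as higher in P301S astrocytes, 4 of 6, where 0.519% of all genes tested were called higher. Nothing is read from that count, since the 8 genes were picked with these values known. For Gbp6 and Irgm1 every P301S library lay above every non-Tg library, which held for 1.26% of the genes tested.

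Gbp6 had 25.1, 18.4, 61.2, 10.0 and 26.9 CPM in P301S astrocytes, against a lowest value of 1.71, a median of 2.37 and a highest value of 6.49 CPM in non-Tg astrocytes. All 5 P301S libraries were higher than all 6 non-Tg libraries, and the fitted log2 difference was 3.25 (SE 0.68), a fold of 9.50. The P301S counts ranged from 14 to 175 and the non-Tg counts from 4 to 20. Adding the counts of its near copy Gbp10 left the order of the groups as it was, with 30.3, 18.4, 63.3, 10.0 and 26.9 CPM in P301S astrocytes and at most 6.81 CPM in non-Tg astrocytes.

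Gbp3, a member of the chromosome 3 cluster, had 52.0, 14.1, 101, 80.2 and 63.5 CPM in P301S astrocytes, against a lowest value of 2.18, a median of 9.40 and a highest value of 20.3 CPM in non-Tg astrocytes. P301S library 2 lay inside the non-Tg range and the other four lay above it. The fitted log2 difference was 2.57 (SE 0.57), a fold of 5.92. Gbp7, the gene with the most counts of the 8, had 110, 45.6, 181, 203 and 142 CPM in P301S astrocytes, against a lowest value of 19.9, a median of 33.9 and a highest value of 80.9 CPM in non-Tg astrocytes. Here too P301S library 2 was the only one within the non-Tg range, below non-Tg library 5, and the log2 difference was 1.83 (SE 0.42), a fold of 3.55. Gbp2, in the same cluster, did not share this pattern. It had 3.14, 6.25, 1.40, 0 and 3.14 CPM in P301S astrocytes, against a lowest value of 0.570, a median of 2.39 and a highest value of 5.63 CPM in non-Tg astrocytes. The Gbp2 ranges overlapped throughout. Pooled over libraries, and relative to total counts without TMM scaling, the 44 P301S counts and 42 non-Tg counts gave a ratio of 1.14. Its 95% interval of 0.727 to 1.78 covers counting error only.

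Irgm1, a regulator of the Irg effectors, had 25.7, 12.8, 48.6, 63.0 and 34.9 CPM in P301S astrocytes, against a lowest value of 2.50, a median of 4.72 and a highest value of 10.5 CPM in non-Tg astrocytes. The groups did not overlap, and the log2 difference was 2.72 (SE 0.60), a fold of 6.57. Iigp1, the effector of the set and the only one of the 8 on chromosome 18, had 25.4, 1.56, 19.2, 14.3 and 6.28 CPM in P301S astrocytes, against a lowest value of 0, a median of 2.99 and a highest value of 4.09 CPM in non-Tg astrocytes. P301S library 2 lay within the non-Tg range and the other four above it, and the log2 difference of 2.47 had an SE of 0.93 and did not pass the threshold.

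The regulators Irgm2 and Igtp each owed most of their P301S signal to 1 library, and not to the same one. Irgm2 had 20.3, 3.13, 6.64, 5.73 and 69.1 CPM in P301S astrocytes, against a lowest value of 2.18, a median of 5.18 and a highest value of 13.7 CPM in non-Tg astrocytes. Only P301S libraries 1 and 5 lay above the non-Tg range. The fitted log2 difference of 1.76 (SE 0.80) did not pass the threshold and was 0.51 without P301S library 5. Igtp had 6.00, 1.56, 3.85, 127 and 0.698 CPM in P301S astrocytes, against a lowest value of 0, a median of 1.51 and a highest value of 3.42 CPM in non-Tg astrocytes. P301S library 4 held 177 of the 216 Igtp counts of its group, while P301S library 5, which held 198 of the 306 Irgm2 counts, had 2 counts of Igtp. Summed over the pair, P301S astrocytes had 26.3, 4.69, 10.5, 132 and 69.8 CPM, against a lowest value of 3.12, a median of 6.35 and a highest value of 17.1 CPM in non-Tg astrocytes, so that 3 of the 5 P301S libraries lay above the non-Tg range for the sum. Whether reads were shared between these overlapping gene models was not tested.

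**Figure D2:**
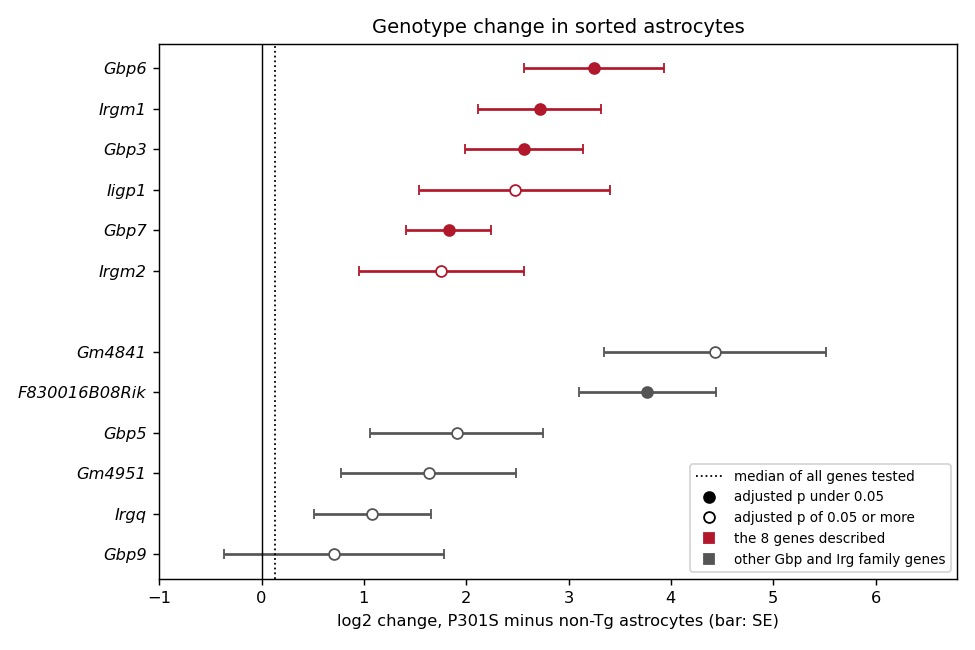
Fitted log2 change (P301S minus non-Tg astrocytes, bars 1 SE) of the 6 described genes that passed the filter (red) and of 6 other Gbp and Irg family genes (grey). Filled points have an adjusted p under 0.05 and the dotted line is the median of all genes tested, 0.13; all 12 points lie above it, with Gbp6 at 3.25 the highest red one and F830016B08Rik at 3.77 the only filled grey one.

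Library by library, P301S astrocyte library 1 had 7 of the 8 genes above every non-Tg astrocyte library, libraries 3, 4 and 5 had 6 each, and library 2 had 3. Of all genes tested, 22.0% to 27.9% lay above every non-Tg library in these P301S libraries. Relative to each gene's mean over the 11 astrocyte libraries, Irgm1, Gbp7 and Gbp3 followed the mean profile of the 6 tested genes most closely, with root mean square distances of 0.42, 0.50 and 0.52 on the log2 scale, and Irgm2 departed from it most, with 1.003.

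**Figure D3:**
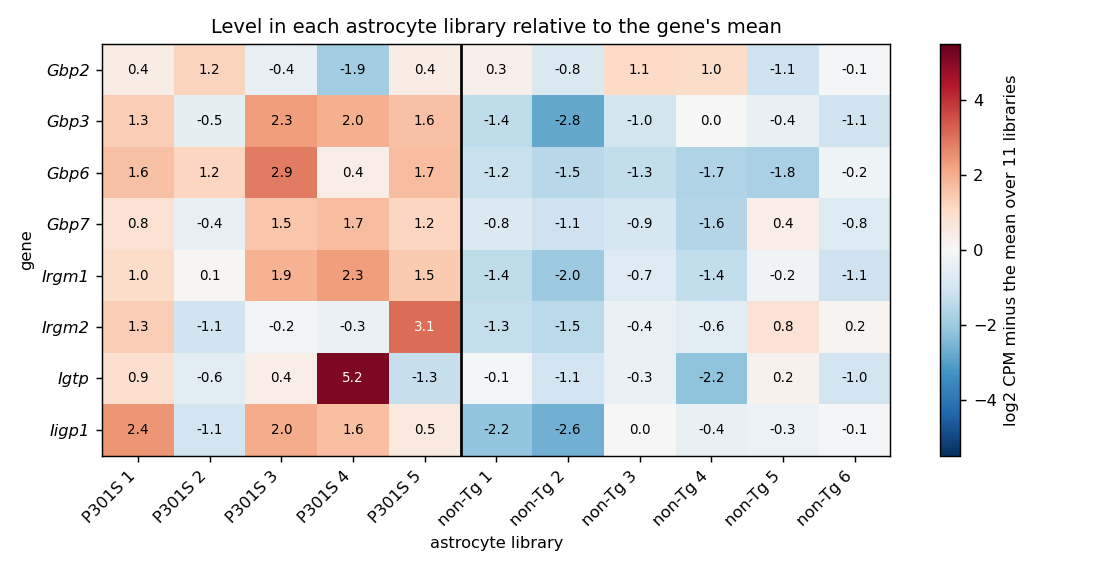
Log2 CPM of each of the 8 genes in each astrocyte library, minus that gene's mean over the 11 libraries, for 5 P301S libraries (left of the line) and 6 non-Tg libraries (right). Numbers in the cells are the plotted values; Gbp3, Gbp6, Gbp7, Irgm1 and Iigp1 are above their mean in P301S libraries 1, 3, 4 and 5, whereas Irgm2 peaks in P301S library 5 and Igtp in P301S library 4.

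Leaving out any of several single libraries ended these calls, although the log2 changes of Gbp6, Irgm1, Gbp3 and Gbp7 stayed between 1.63 and 3.63. None of the 8 genes was called without P301S astrocyte library 3 or without non-Tg astrocyte library 1, 2 or 3. Of the 8, 1 was called without P301S library 4 or 5 or without non-Tg library 4 or 6, 2 without non-Tg library 5, and 4 without P301S library 1 or 2. With total counts in place of TMM scaling, 0 were called, at log2 changes of 1.53 to 3.09 for the same 4 genes.

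Other genes of both families gave a mixed picture. Of 18 listed, 6 passed the filter in astrocytes, 1 was called higher and none lower, with a median log2 change of 1.77. Of all genes tested, 0.519% were called higher, and the median was 0.13. F830016B08Rik, an Irg family gene known by its clone name, had 49.7, 133, 124, 90.2 and 33.1 CPM in P301S astrocytes, against a lowest value of 0.312, a median of 4.39 and a highest value of 18.8 CPM in non-Tg astrocytes. The groups did not overlap, and it rose by 3.77 on the log2 scale (SE 0.67, edgeR adjusted p = 0.00744). Gm4841, a predicted gene of the same kind, had 13 to 39 counts in the P301S and 0 to 6 in the non-Tg astrocyte libraries, with a log2 difference of 4.43 (SE 1.08, adjusted p = 0.0682). The log2 differences of Gbp5, which promotes inflammasome assembly, of Gm4951, of Irgq and of Gbp9 were 1.91, 1.63, 1.08 and 0.71, with adjusted p of 0.327, 0.411, 0.413 and 0.812. Gbp11, a transcribed pseudogene in the RefSeq annotation used, did not pass the filter. It had 12, 8, 55, 2 and 2 counts in P301S astrocytes and 1 count over all non-Tg astrocyte libraries. Gbp4 and Gbp10 each had counts in 2 P301S astrocyte libraries, with 35 and 24 counts in all against 1 and 4 in non-Tg astrocytes, and Gbp8 had 5 against 13. The Irg effectors Tgtp1, Tgtp2 and Gm12250 had 3, 0 and 0 counts in the P301S and 0, 0 and 1 in the non-Tg astrocyte libraries. Gbp2b, Gm12185, 9930111J21Rik1, 9930111J21Rik2 and Irgc1 had at most 12 counts in either astrocyte group.

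In neurons, the comparison of genotypes called 1 of 10951 genes higher in P301S neurons, a share of 0.00913%, and none lower, while 846 genes had an unadjusted p under 0.05. None of the 8 GTPase genes passed the filter on low counts, so none was tested, and with no filter edgeR called none of them. Gbp7, with 64 counts over P301S neurons and 29 over non-Tg neurons, had a lowest value of 1.93, a median of 4.26 and a highest value of 10.4 CPM in P301S neurons, against 0.219, 1.80 and 3.94 CPM in non-Tg neurons. The ranges overlapped, with P301S libraries 1, 3 and 5 above every non-Tg library. Iigp1, with 36 and 32 counts in these groups, had a lowest value of 0.435, a median of 2.36 and a highest value of 5.41 CPM in P301S neurons, against 0, 1.63 and 4.96 CPM in non-Tg neurons, and these ranges overlapped almost throughout. Irgm2 had 20 counts over the P301S neuron libraries and 10 over the non-Tg ones, Irgm1 15 and 12, and Gbp3 8 and 4. Gbp6 and Igtp each had 2 counts in P301S and 1 in non-Tg neurons, and Gbp2 had 0 and 1. A count of 3 in a library corresponds to 0.674 to 2.41 CPM relative to total counts without TMM scaling, unlike the TMM-scaled levels above. Levels under a count of 3 could not be told from 0 at this depth.

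The contrast of cell types describes how the levels of these genes differed between astrocytes and neurons. None of the 8 passed the filter among neurons alone, so those that entered this fit did so through astrocytes, where they were high, and the counts that follow are no support for a difference. Of the 6 genes that passed the filter over all 25 libraries, 6 were higher in P301S astrocytes than in P301S neurons, where 29.0% of 14197 genes were called higher in astrocytes. In non-Tg mice 5 of 6 were higher in astrocytes, where 25.1% of all genes were, and Iigp1 was the exception. Gbp6, Gbp3, Irgm1 and Gbp7 did not overlap between cell types in either genotype, which held for 12.1% of genes in P301S mice and 14.9% in non-Tg mice. The log2 difference of Gbp6 was 7.23 (SE 0.78) in P301S mice and 4.93 (SE 0.77) in non-Tg mice, and that of Gbp3 was 6.61 (SE 0.74) and 5.37 (SE 0.72). For these genes the neuron libraries held 0 to 3 counts each, so the fitted differences depend on the prior count. Gbp7, which had counts in every library, differed by 4.83 (SE 0.53) in P301S mice and 4.53 (SE 0.50) in non-Tg mice, Irgm1 by 5.03 (SE 0.66) and 3.14 (SE 0.61), and Irgm2 by 3.83 (SE 0.82) and 3.37 (SE 0.79). Iigp1 differed least, by 2.27 (SE 0.83) in P301S mice and 0.34 (SE 0.79) in non-Tg mice. Gbp2 had 44 counts in P301S astrocytes and 0 in P301S neurons. Set against 3 counts over that group, its pooled level per total count, without TMM scaling, was at least 10.4-fold higher in P301S astrocytes.

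**Figure D4:**
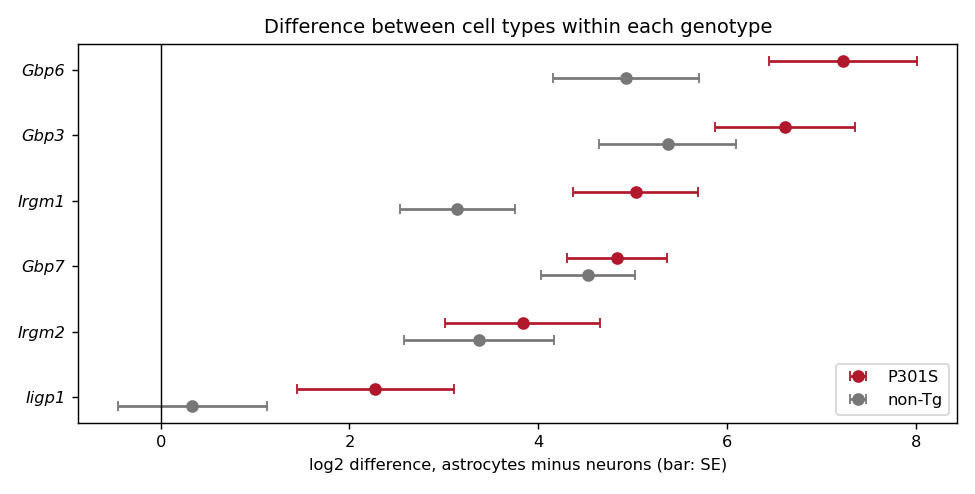
Fitted log2 difference between astrocytes and neurons (bars 1 SE) within P301S mice (red) and non-Tg mice (grey), for the 6 genes that passed the filter over all 25 libraries. All differences are above 0 in both genotypes, from 7.23 for Gbp6 in P301S mice to 0.34 for Iigp1 in non-Tg mice.

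The difference between the genotype effects of the cell types, astrocytes minus neurons, was called higher for 29 of 14197 genes, or 0.204%, and lower for 27. None of the 6 GTPase genes was called by edgeR or by DESeq2, and none had an unadjusted p under 0.05 in edgeR's test, so that no difference between the cell types in the genotype effect is shown for any of them. The log2 difference was 1.89 (SE 0.95) for Irgm1 and 1.94 (SE 1.16) for Iigp1, and over all 6 genes it ranged from 0.31 for Gbp7 (SE 0.78) to 2.30 for Gbp6. Pooled counts can be set side by side for Gbp7 and Iigp1, the genes with the most counts in neurons. These pooled ratios are relative to total counts without TMM scaling, unlike the fitted differences. Gbp7 had a pooled ratio of P301S to non-Tg of 3.34 in neurons (64 against 29 counts; 95% interval 2.12 to 5.37) and of 2.69 in astrocytes (1741 against 701 counts; 95% interval 2.47 to 2.95), where the intervals cover counting error only. Iigp1 had a pooled ratio of 1.70 in neurons (36 against 32 counts; 95% interval 1.03 to 2.83) and of 5.34 in astrocytes (187 against 38 counts; 95% interval 3.75 to 7.78), with intervals of the same kind. The neuron and astrocyte intervals overlapped for Gbp7 and did not for Iigp1, and the test across libraries called neither gene.

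The genes that carry the interferon signal were followed by their place in the pathway. Of 8 interferon ligand genes none was tested in either cell type, and Ifng, the gene of interferon-gamma, had 1 count and Ifnb1 had 0 over the 25 libraries. All 4 receptor genes were tested in astrocytes, and none was called by edgeR or had an unadjusted p under 0.05. Ifngr1, the ligand-binding chain of the interferon-gamma receptor, had a log2 difference of -1.23 (SE 0.82, edgeR adjusted p = 0.520), Ifngr2 one of -0.90 (adjusted p = 0.708) and Ifnar1, a chain of the type I receptor, one of -0.66 (adjusted p = 0.583). Of 8 tested genes for Jak kinases, Stat and Irf factors, 1 was called higher, where 0.519% of all genes tested were called higher. Stat2, a transcription factor of the type I interferon pathway, had 219, 153, 152, 195 and 171 CPM in P301S astrocytes, against a lowest value of 33.3, a median of 44.8 and a highest value of 113 CPM in non-Tg astrocytes. It rose by 1.66 on the log2 scale (SE 0.34, adjusted p = 0.0237) with no overlap of the groups. Irf9 differed by 0.91 (adjusted p = 0.479). Of the signalling inhibitors 3 were tested, and none was called or had an unadjusted p under 0.05, with Ptpn11, Ptpn2 and Pias1 at 0.76, 0.45 and -0.53 (adjusted p of 0.654, 0.750 and 0.441).

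Among target genes, 3 of 18 tested genes of the type I interferon list were called higher in P301S astrocytes and none lower, with a median log2 change of 2.01. Of all 12130 genes tested, 0.519% were called higher, and the median log2 change was 0.13. An unadjusted p under 0.05 in edgeR's test was found for 12 of the 18, against 1629 of all genes tested. Nothing is read from these counts, since the lists were chosen with earlier results of these data known. Oasl2, of the oligoadenylate synthetase family, rose by 4.005 on the log2 scale (SE 0.53, adjusted p = 0.000512). Ddx60, an RNA helicase gene, rose by 2.43 (SE 0.41, adjusted p = 0.00631) and Ifi27 by 2.65 (SE 0.42, adjusted p = 0.00315). Of 7 tested genes of the interferon-gamma list, 2 were called higher and none lower, with a median of 1.74, and 3 had an unadjusted p under 0.05. Cxcl10, a chemokine gene, had 41.1, 29.7, 57.0, 48.7 and 14.3 CPM in P301S astrocytes, against a lowest value of 0.315, a median of 2.56 and a highest value of 9.97 CPM in non-Tg astrocytes. These Cxcl10 levels did not overlap, and the log2 change was 3.44 (SE 0.73, adjusted p = 0.0332). Cd274, which encodes the checkpoint ligand PD-L1, changed by 2.79 (SE 0.62, adjusted p = 0.0409), with P301S library 4 the highest at 309 CPM, without which the log2 change was 1.45 and not called (adjusted p = 0.169), and the other P301S libraries between 24.5 and 56.5 CPM, above a non-Tg maximum of 18.9 CPM. Nlrc5, the activator of MHC class I genes, differed by 2.43 (SE 0.63, adjusted p = 0.0818). Mx2, of the related Mx family of GTPases, is a transcribed pseudogene in the RefSeq annotation used. It had 24.3, 47.2, 57.0, 45.1 and 114 CPM in P301S astrocytes, against a lowest value of 0.473, a median of 6.61 and a highest value of 17.6 CPM in non-Tg astrocytes. Mx2 rose by 3.01 on the log2 scale (SE 0.67, adjusted p = 0.0413). Of 21 alternatives, 13 ended the call of Cd274, 11 that of Mx2, 10 that of Cxcl10 and 9 that of Stat2, against 3 for Ddx60 and 2 each for Oasl2, Ifi27 and F830016B08Rik.

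Partners of the GTPases in membrane targeting did not pass the test. Of 9 tested autophagy genes, which include genes of the Atg conjugation machinery and of the Gabarap proteins that direct Irg and Gbp proteins to vacuoles in mice, none was called and 1 had an unadjusted p under 0.05, with a median log2 change of 0.40. Gabarap itself differed by 2.59 (SE 0.92, adjusted p = 0.201), Atg7 by 0.99 (adjusted p = 0.569) and Atg3 by -0.67 (adjusted p = 0.673). The inflammasome genes Il18 and Aim2 differed by 0.28 and 0.47 (adjusted p of 0.783 and 0.853). In neurons the only gene of the whole table to be called was Ddx60, which rose by 2.61 in P301S libraries (SE 0.38, adjusted p = 0.0111), and Ifit1 and Irf1 differed by 1.99 and -1.06 (adjusted p of 0.0611 and 0.208). Ifi27 was the only gene of these lists whose genotype effect differed between cell types, by 2.11 on the log2 scale (SE 0.49, adjusted p = 0.0469), and this call was lost in 22 of 33 alternatives, with adjusted p between 0.0041 and 0.311.

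**Figure D5:**
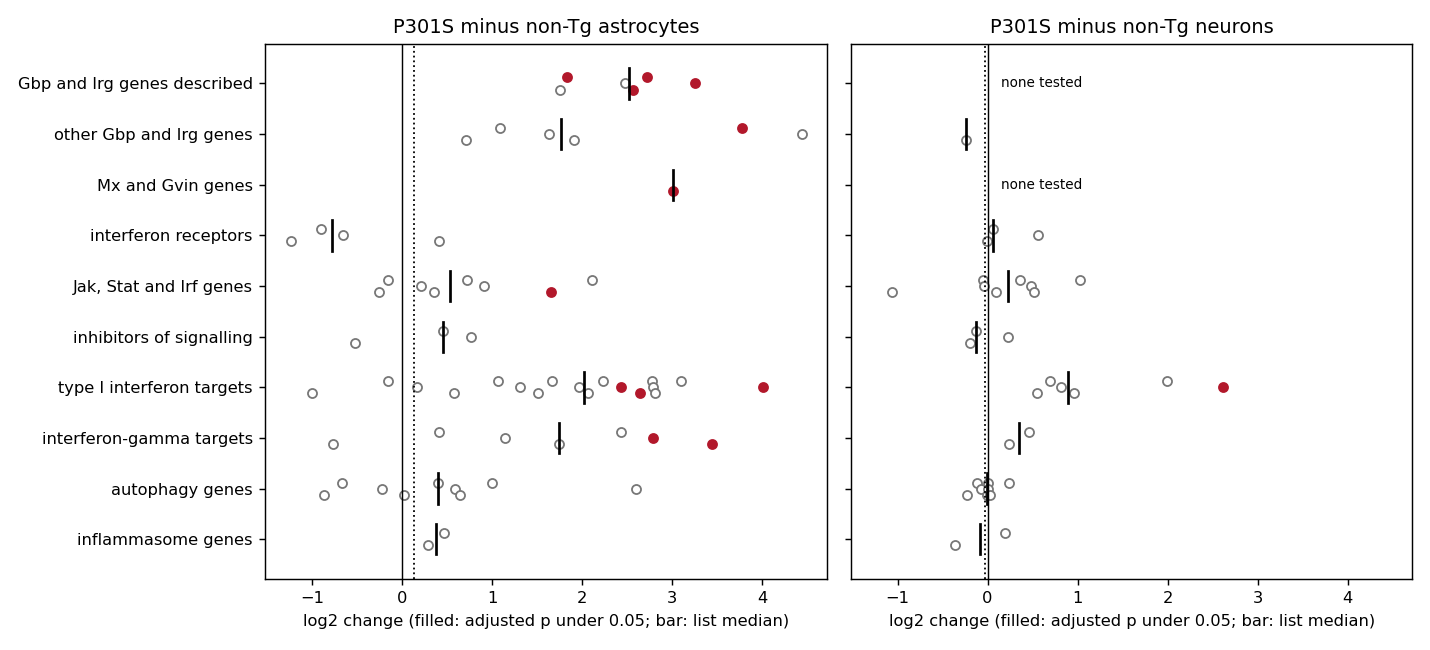
Log2 change of each tested gene, by list, for P301S minus non-Tg astrocytes (left) and P301S minus non-Tg neurons (right). Filled points have an adjusted p under 0.05, the vertical bars are list medians and the dotted line is the median of all genes tested; in astrocytes the list medians of the Gbp and Irg genes and of the interferon targets lie between 1.74 and 2.52 and that of the receptors at -0.78.

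The genes with a profile most like the mean of the 6 tested GTPase genes over the 11 astrocyte libraries were Ddx60, Kctd3, Ggta1, Arhgap17 and Aldh1l1, of 10146 candidates. Their root mean square distances to that mean profile were 0.60, 0.61, 0.62, 0.63 and 0.64 on the log2 scale, while the median of all candidates was 1.60. Over all 25 libraries, centred within cell type, the closest genes were Rnf213, Arhgap17, Cttnbp2nl, Mapk1ip1 and Rab7, so Arhgap17 was on both lists. Ddx60 ranked 1749th there.

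Markers of other cell types were summed in the same libraries, and none of the tested markers of microglia, oligodendrocytes, mural cells or lymphocytes was called for genotype in astrocytes by edgeR. At an unadjusted p under 0.05 there were 1 of 5 tested microglia markers, C1qb, and 3 of 5 oligodendrocyte markers. The same held for 1 of 4 mural and fibroblast markers. It also held for Ptprc, the 1 tested gene of the lymphocyte list, which is not particular to lymphocytes. C1qb differed by 2.76 on the log2 scale (SE 0.89, edgeR adjusted p = 0.168). Csf1r, Itgam, P2ry12 and Cx3cr1 differed by 0.75, 0.40, 0.20 and 0.12. Of all 12130 genes tested, 1629 had an unadjusted p under 0.05. Microglia and myeloid markers, all 10 of which had counts in P301S astrocytes, summed to 64.4 to 177 CPM (median 88.9) in P301S astrocytes and 29.5 to 80.3 CPM (median 57.7) in non-Tg astrocytes, with P301S library 3 the highest. Gbp3 and Gbp6 also peaked in that library, whereas Gbp7, Irgm1, Igtp and the sum of all 8 genes peaked in library 4, Irgm2 in library 5, Iigp1 in library 1 and Gbp2 in library 2. In P301S neuron library 1 these markers reached 330 CPM, above every astrocyte library, and the 8 GTPase genes summed to 16.2 CPM there. With the level of these markers in the model, none of the GTPase genes was called, at log2 changes of 3.51 for Gbp6, 2.20 for Irgm1, 1.77 for Gbp3 and 1.68 for Gbp7. Oligodendrocyte markers summed to 385 to 1209 CPM in P301S astrocytes and 178 to 503 CPM in non-Tg astrocytes, and their part in the results was not tested. Endothelial markers summed to 1.05 to 26.9 CPM in P301S astrocytes, with Cldn5 and Kdr at 0 in all 5 libraries, and 0.855 to 28.5 CPM in non-Tg astrocytes. Of 8 lymphocyte markers, Cd3e, Cd3g, Cd4, Ncr1, Klrb1c and Nkg7 had no count in any P301S astrocyte library. The remaining Cd8a and Ptprc summed to 3.44 to 53.0 CPM there, with library 4 the highest. In non-Tg astrocytes the whole list summed to 1.95 to 15.3 CPM. Ptprc differed by 2.40 on the log2 scale between P301S and non-Tg astrocytes (SE 0.93, edgeR adjusted p = 0.255). Mural cell and fibroblast markers summed to 105 to 182 CPM in P301S astrocytes and 93.4 to 207 CPM in non-Tg astrocytes. When the fit took each library's count of detected genes as a covariate, it called 0 genes of the whole table, and the log2 changes of Gbp6, Irgm1, Gbp3 and Gbp7 were 3.42, 1.82, 1.77 and 1.06.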

How the data were processed

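Per the file headers, the authors deposited, for each of 25 libraries, counts of reads aligned uniquely to gene models (totals 1245964 to 4453555) and RPKM values adjusted by size factors. GSNAP and GRCm38 are named in the submitters' processing notes, with no version; the gene models used and the use of strand are not known here. Of 36528 gene identifiers, 31049 matched a RefSeq symbol, and the others held 3.30% of counts. The 8 genes and all lists were chosen with earlier results of these data known. All 8 genes are named, with family genes, called list genes and up to 3 genes of smallest p per list and genotype comparison, and 5 genes of like profile; 1 gene that this rule names is not reported here. Genotypes were compared within each cell type, and cell types in 1 fit of all libraries, with edgeR 4.0.16 (R 4.3.3). Settings were TMM, default expression filter, robust quasi-likelihood F test, Benjamini-Hochberg over all genes tested and threshold 0.05. On simulated data the astrocyte genotype fit recovered 2% of changed genes at a log2 change of 1 and 32% at 2. For the difference in genotype effect these shares were 1% and 37%, and in neurons 69% and 100%. The changed genes were drawn from those with higher counts. None of the 8 GTPase genes passed the filter in neurons, so the neuron shares do not apply to them. A gene that was not called may therefore still differ. SE is the log2 change over the square root of F. Log2 CPM profiles used a prior count of 2. DESeq2 1.42.0 and limma 3.58.1 (voom) were alternatives, beside other filters, scalings and covariates, and total-count scaling was added after seeing the data. In 68 pairs of libraries of a group, counts differed by more than sampling noise (chi-square per degree of freedom 1.84 or more). The lowest values were 1.84 for non-Tg neuron libraries 4 and 7 and 2.20 for 3 and 6. Such differences do not show that libraries came from different animals. Each library was counted as 1 replicate. Intervals and floors cover counting error only.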

Additional observations from a re-analysis of the deposited data

Results flagged for a closer look

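Dixon's test was applied to 37 sets of 5 to 8 libraries of a Gbp or Irg family gene. Each set had at least 10 counts in a library. Of the 37 sets, 8 held a library far from the others. By chance the test marks about 1 in 20 where values follow a normal distribution, which low counts need not do. Igtp in P301S astrocyte library 4 stood at 127 CPM, with the next library at 6.00 CPM, and Irgm2 in P301S astrocyte library 5 at 69.1 CPM, with the next at 20.3 CPM. In P301S astrocytes Gbp11 stood at 19.2 CPM in library 3, with the next at 3.43 CPM, Gbp4 at 8.75 CPM in library 2, with the next at 2.00 CPM, and Gm12185 at 2.86 CPM in library 1, with the next at 0.6252 CPM. In non-Tg astrocytes Gbp7 stood at 80.9 CPM in library 5, with the next at 36.0 CPM. Non-Tg astrocyte library 6 stood apart for Gbp6, at 6.49 CPM with the next at 2.83 CPM, and for Gbp8, at 3.89 CPM with the next at 0.473 CPM. All 8 of these genes share stretches of 50 bases with other family genes, from 2.26% of those of Gbp7 to 49.9% of those of Gbp6. Of all family genes listed, only F830016B08Rik, Gbp5, Gm12250, Irgc1, Irgm1 and Irgq share none, so sharing is not particular to these 8. Whether it bears on these values was not tested.

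Ifi27 had a genotype effect that differed between cell types by a test of the difference, 2.11 on the log2 scale (SE 0.49, edgeR adjusted p = 0.0469), with a log2 change of 2.65 in astrocytes. The call was lost in 22 of 33 alternatives, with adjusted p between 0.0041 and 0.311.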

How the results depend on the processing

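Log2 changes of the GTPase genes kept their sign under most alternatives: of 708 alternative values over 24 results, 651 kept direction and side of the threshold, 52 lost the call, 1 gained it and 4 turned sign. The counts of calls were less stable. In astrocytes, where 66 genes and 4 GTPase genes were called, DESeq2 called 440 genes, voom with quality weights 119, no filter 561 and 1 fit of all 4 groups 1682. These 4 settings called 4, 4, 5 and 5 GTPase genes. The fit called 4 genes with the microglia marker covariate, 0 with the detected-gene covariate, 42 without P301S astrocyte libraries 3 and 4, and 33 with total counts, and each of these settings called 0 GTPase genes. Leaving out 1 library gave 27 to 136 genes and 0 to 4 GTPase genes. In neurons, where 1 gene was called, DESeq2 called 49, voom 41, no filter 17, a filter at 1 CPM 10, the microglia covariate 0, the detected-gene covariate 11, total counts 2, and leaving out the 2 non-Tg libraries whose sample identifiers lie in another range 38, while leaving out 1 library gave 0 to 23. For the difference between cell types in the genotype effect, where 56 genes were called, DESeq2 called 425, voom 10, the microglia covariate 33 and leaving out those 2 libraries 12, and leaving out 1 library gave 9 to 522. The causes were not tested.

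Sign changes of the fitted log2 values were as follows. For genotype in astrocytes, Gabarap was -0.38 with voom, and Il18 was -0.15 with voom, -0.17 with the microglia covariate, -0.51 with the detected-gene covariate, -0.37 without P301S libraries 3 and 4, -0.11 with total counts and -0.28 to 0.46 leaving out 1 library. Aim2 was -0.0027 to 1.15 leaving out 1 library. With the detected-gene covariate Ifngr1, Ifnar1 and Ifngr2 were 0.21, 0.16 and 0.57. For genotype in neurons, Ifnar2 was 0.011 with DESeq2, 0.11 with the detected-gene covariate, 0.024 with total counts and -0.080 to 0.086 leaving out 1 library. Ifngr2 was -0.070 with that covariate and -0.090 to 0.21 leaving out 1 library, Ptpn2 was 0.13 with that covariate, and Atg5 was -0.24 to 0.033 leaving out 1 library. Between cell types in non-Tg mice, Iigp1 was -0.52 with voom, and Irgq was -0.0069 with DESeq2, -0.11 with total counts and -0.016 to 0.29 leaving out 1 library. For the difference in genotype effect, Gbp7 was -0.012 with total counts, Irgm2 was -0.81 to 0.84 and Gm4951 -0.96 to 1.21 leaving out 1 library. The median log2 change of all genes in astrocytes, 0.13, was -0.15 with voom and -0.17 with no filter. No paired analysis was possible because the labels give no replicate numbers and do not tie libraries to animals.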
